A study of Mus musculus with 21 samples.

Results

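The comparison set B-1b cells against B-2 cells of the mouse peritoneal cavity, both from TET2-KO animals, and rested on 7 of the 21 libraries of the series: 3 of B-1b cells and 4 of B-2 cells, chosen by their titles. The animals were C57BL/6 mice that lacked TET2 in every tissue, through deletion of exons of its catalytic region, so the control population carried the same deletion as the population compared with it. They received no treatment in this experiment. They are described as young, with no age in numbers in the sources used here, and the labels do not say whether libraries with the same number came from the same mouse or whether mice were pooled. Cells were flushed from the cavity and sorted. B-1b cells were taken as CD23lo IgDlo, B220lo and CD5- B cells, while the gate that defined B-2 cells is not spelled out in the sources used here. In all, 56953 annotated genes were counted in each library, 17506 passed a filter on low counts and were tested, and 242 of those were immunoglobulin genes, which are described apart from the other 17264. The wild-type libraries were not used, since those numbered 1 and 2 do not match their subset label.

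B-1 cells are innate-like B lymphocytes that settle in the body cavities, renew themselves in place and secrete much of the natural IgM of the blood. They are split by surface CD5 into B-1a cells, which carry it, and B-1b cells, which do not. B-1b cells are known for lasting antibody responses to bacterial polysaccharides without T cell help. B-2 cells are the conventional recirculating B cells that carry CD23 and high IgD and enter germinal centres. TET2 is a dioxygenase that oxidises 5-methylcytosine in DNA, and its loss is common in blood cell clones and lymphoid malignancy.

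The ends of 6 immunoglobulin V genes are shown because their shares or levels set the populations apart. Ighv6-3, Ighv12-3 and Igkv4-91 were higher in level in B-1b cells, and Igkv3-4 and Igkv13-84 lower. Ighv1-26 was lower in share without overlap, but its level did not pass the test. Each run holds the last 60 bases of the annotated gene on its coding strand, in lower case, and in capitals the 7 bases that follow. In most V genes those bases are the recombination heptamer CACAGTG, at which the V segment is cut and joined, and the last few lower-case bases before it, after the codon of a conserved cysteine, begin the third complementarity-determining region.
Ighv6-3, GRCm39 chr12:114355325-114355391, minus strand: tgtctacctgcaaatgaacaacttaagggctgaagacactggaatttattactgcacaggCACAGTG
Ighv12-3, GRCm39 chr12:114330134-114330200, minus strand: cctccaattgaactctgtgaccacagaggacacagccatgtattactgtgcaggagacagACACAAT
Ighv1-26, GRCm39 chr12:114751985-114752051, minus strand: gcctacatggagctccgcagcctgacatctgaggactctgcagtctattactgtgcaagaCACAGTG
Igkv4-91, GRCm39 chr6:68745532-68745598, minus strand: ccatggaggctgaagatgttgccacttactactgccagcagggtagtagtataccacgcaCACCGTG
Igkv3-4, GRCm39 chr6:70649302-70649368, plus strand: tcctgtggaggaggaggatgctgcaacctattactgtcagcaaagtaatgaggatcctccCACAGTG
Igkv13-84, GRCm39 chr6:68916992-68917058, plus strand: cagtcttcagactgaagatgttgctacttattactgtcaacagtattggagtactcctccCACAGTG
The heptamer stood directly after 81 of 113 Ighv genes with an open reading frame in the files (71.7%) and 84 of 100 such Igkv genes (84%). It followed the annotated end of Ighv6-3, Ighv1-26, Igkv3-4 and Igkv13-84, and not that of Ighv12-3 or Igkv4-91, where the capitals differ from it. With 1 library left out, the highest adjusted p reached 0.153 for Ighv12-3 without B-1b library 1. Ighv12-3 passed in 1 of the 7 such fits.

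The libraries held between 14923926 and 17425219 counts in B-1b cells and between 9667187 and 17903063 in B-2 cells. B-1b libraries 1 to 3 had at least 1 count for 23913, 26360 and 17816 genes, and B-2 libraries 1 to 4 for 32027, 33819, 27669 and 35576, so the groups did not overlap in this measure. Olfactory and vomeronasal receptor genes, which B cells are not known to use, summed to 166 to 807 CPM (counts scaled to 1000000 per library) in B-1b cells and to 428 to 2997 in B-2 cells. Weakly counted genes moved with these values: the median log2 fold change, written throughout as B-1b over B-2, was -1.42 over the 4933 other genes with a mean under 2 CPM and 0.18 over the 3568 at 50 CPM or more. With the receptor level as a covariate, the fit called 36 genes higher and 31 lower among the other genes. Markers of peritoneal macrophages were plentiful in every library: the summed level of the 20 listed genes was 10485 to 23136 CPM in B-1b cells and 7219 to 30455 in B-2 cells, with Lyz2 alone at 5905 to 15624 and 4775 to 20629.5 CPM. None of the 20 passed the test between the populations by edgeR, 0 had an unadjusted p under 0.05, and DESeq2 called 0. In such bulk samples, fewer cells of a type and less RNA per cell cannot be told apart.

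The 4 markers that separate the populations by name went with the labels. Zbtb32 (ENSMUSG00000006310.11, GRCm39 chr7:30289106-30298334), a zinc finger repressor of B-1 and memory B cells, was at 539, 408 and 575 CPM in the B-1b libraries and 89.6, 61.7, 111 and 83.8 CPM in the B-2 libraries. Its lowest B-1b library stood above its highest B-2 library by several times (log2 fold change 2.55 ± 0.23 (SE), adjusted p = 0.000268). Bhlhe41 (ENSMUSG00000030256.12, GRCm39 chr6:145803969-145811284), a repressor needed for B-1a cell development and self-renewal, was at 22.9, 37.2 and 33.8 CPM in the B-1b libraries and 6.402, 9.21, 8.21 and 15.1 CPM in the B-2 libraries, again without overlap (log2 fold change 1.69 ± 0.304 (SE), adjusted p = 0.016). Fcer2a (GRCm39 chr8:3731737-3744175), which encodes CD23, was at 46.9, 48.4 and 35.1 CPM in the B-1b libraries and 692, 813, 929 and 604 CPM in the B-2 libraries. This gene was part of the sort, so its 17.5-fold lower level is a check of the gate and not a finding (log2 fold change -4.13 ± 0.26 (SE), adjusted p = 2.37e-05). Cr2 (GRCm39 chr1:194819119-194859024), which encodes the complement receptors CD21 and CD35 and was not in the sort panel, was at 19.9, 28.1 and 25.5 CPM in the B-1b libraries and 161, 168, 199 and 192 CPM in the B-2 libraries (log2 fold change -2.88 ± 0.21 (SE), adjusted p = 7.97e-05). Cd5, whose product the B-1b gate excluded, was at 4.31 ± 1.25 CPM (SD, n = 3) in B-1b cells and 2.76 ± 0.644 CPM (SD, n = 4) in B-2 cells (adjusted p = 0.544). The least favourable fit without 1 library gave adjusted p = 0.0999 for Bhlhe41 without B-2 library 2. Bhlhe41 passed in 3 of the 7 such fits.

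Tet2 itself was counted in all 7 libraries, at 18.04, 22.3 and 19.2 CPM in the B-1b libraries and 16.7, 24.8, 14.1 and 37.8 CPM in the B-2 libraries. The groups overlapped and the difference did not pass the test (log2 fold change -0.23 ± 0.32 (SE), adjusted p = 0.722). The count covers the whole gene, including exons outside the deleted part, so its level checks nothing about the deletion.

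Among the 17264 other genes, 217 were higher and 123 lower in B-1b cells at an adjusted p under 0.05 in edgeR's quasi-likelihood test (1.26% and 0.712% of those tested, 1.97% together). With the immunoglobulin genes, 372 of 17506 genes were called (2.12%) and 3468 did not overlap (19.8%). All 340 had groups that did not overlap, against 3387 of the genes tested (19.6%). The genes called higher had a median log2 fold change of 1.57 and those called lower of -2.10, beside a median of -0.09 over all 17264. By level, none of the 217 and 11 of the 123 had a mean under 2 CPM, while 82 and 37 stood at 50 CPM or more. DESeq2 called 526 genes higher and 2539 lower, and 1746 of the latter had a mean under 2 CPM. The 340 calls were all among those DESeq2 made, in the same direction. Leaving out 1 library lowered the total to 166, 164 and 300 without B-1b libraries 1, 2 and 3, and to 132, 97, 312 and 214 without B-2 libraries 1 to 4. The 97 were all among the 340, with 63 higher and 34 lower. With the replicate number as a block, 126 were called, 120 of them among the 340. Without both B-1b library 3 and B-2 library 4, which had the fewest and the most genes detected, 425 were higher and 223 lower, and 318 of the 340 were among them. The paper speaks of sequences pooled from mice, with n = 3 for TET2-KO B-1b cells, and gives no such number for the B-2 libraries. The labels do not tie a library to an animal, so p-values rest on the spread between these libraries only.

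**Figure D1:**
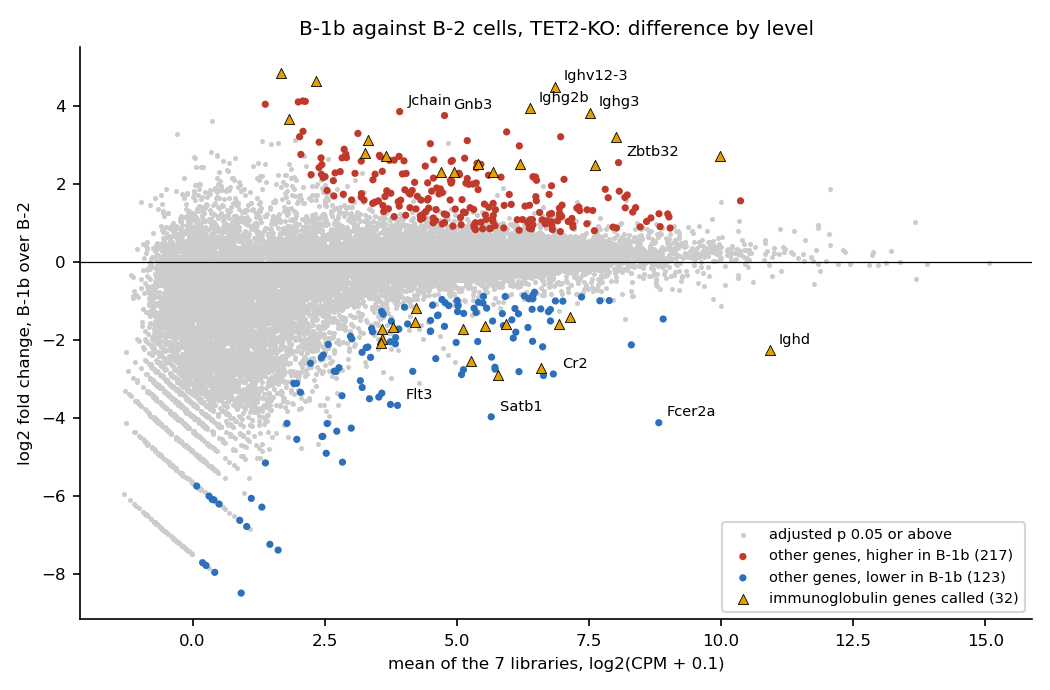
Each point is 1 of the 17506 genes tested, with the mean level over the 7 libraries, log2(CPM + 0.1), on the x axis and the log2 fold change of B-1b over B-2 cells on the y axis. Red and blue circles are the 217 and 123 other genes called higher and lower, triangles are the 32 immunoglobulin genes called, and grey points, which did not pass, fan out below 0 at low levels.

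Of the protein-coding genes that passed, did not overlap and reached a mean of 20 CPM in the higher group, those with the largest rises in B-1b cells included secreted proteins, a scaffold and a coactivator of transcription. Jchain, the joining chain of polymeric IgM and IgA, was at 22.5, 53.4 and 20.3 CPM in the B-1b libraries and 0.895, 3.42, 1.08 and 3.55 CPM in the B-2 libraries (log2 fold change 3.86 ± 0.53 (SE), adjusted p = 0.00304). Both groups were low in absolute terms, and the highest B-2 library was well under the lowest B-1b library. Pou2af2, a coactivator of POU factors, was at 233, 310.4 and 221 CPM in the B-1b libraries and 29.4, 23.8, 39.5 and 16.8 CPM in the B-2 libraries (log2 fold change 3.22 ± 0.28 (SE), adjusted p = 0.000248). Ahnak2, a very large scaffold protein, was at 92.1, 124 and 164 CPM in the B-1b libraries and 12.1, 11.2, 17.8 and 8.61 CPM in the B-2 libraries (log2 fold change 3.34 ± 0.28 (SE), adjusted p = 0.000212). Fgl2, a fibrinogen-like secreted protein, was at 147, 154 and 134 CPM in the B-1b libraries and 32.8, 14.8, 18.9 and 6.59 CPM in the B-2 libraries (log2 fold change 2.98 ± 0.397 (SE), adjusted p = 0.00276). B-2 library 4 had the lowest values of Pou2af2, Ahnak2 and Fgl2, and the groups stayed apart in each.

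Receptors and keratins were also among the largest rises. Gnb3, a G protein beta subunit, stood at 38.7, 81.1 and 53.2 against 3.44, 4.56, 3.47 and 5.57 CPM (log2 fold change 3.76 ± 0.296 (SE), adjusted p = 0.000136). Gpr55, a receptor for lysophosphatidylinositol, stood at 23.6, 26.3 and 17.8 against 4.06, 3.51, 3.35 and 2.87 CPM (log2 fold change 2.705, adjusted p = 0.000578). Ackr2, an atypical receptor that scavenges inflammatory chemokines, stood at 26.6, 27.8 and 26.04 against 4.34, 3.67, 4.31 and 5.15 CPM (log2 fold change 2.62, adjusted p = 0.00026), with hardly any spread among the B-1b libraries. Tnfrsf8, which encodes CD30, ranged more widely, at 55.6, 30.1 and 119 against 11.5, 5.298, 20.4 and 5.49 CPM (log2 fold change 2.67, adjusted p = 0.0289). Nacc2, a BTB domain repressor, rose by 2.63 on the log2 scale, Tcstv2a by 2.71, Ak8, an adenylate kinase, by 2.598, and Zfp811 by 2.61, with B-1b library 3 high for the last (114 CPM against 34.98 and 24.1). Krt18 and Krt8, partner keratins of simple epithelia, were at 19.9, 25.7 and 21.7 against 3.03, 3.34, 6.23 and 0.676 CPM and 18.4, 13.8 and 43.6 against 5.16, 1.304, 7.91 and 1.94 CPM (log2 fold changes 2.74 and 2.61, adjusted p = 0.0193 and 0.0424). The mesothelial genes Msln, Upk3b, Wt1 and Krt19 were close to 0, with means of 0.04597, 0, 0.06896 and 0.02299 CPM in B-1b cells and 1.28, 0.5595, 0.316 and 0.901 CPM in B-2 cells, none of them high enough to be tested. Some calls were lost without 1 library. The highest adjusted p came without B-2 library 2, at 0.127 for Tnfrsf8, 0.1 for Zfp811, 0.102 for Krt18 and 0.146 for Krt8. Of the 7 fits that left out 1 library, Krt8 passed in 1, Tnfrsf8 in 2, and Krt18 and Zfp811 in 4 each.

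The 15 largest falls included surface receptors and regulators of B-2 cells beside Fcer2a and Cr2. Satb1, a chromatin organiser of lymphoid cells, was at 5.91, 8.21 and 1.896 CPM in the B-1b libraries and 73.9, 88.4, 75.8 and 96.9 CPM in the B-2 libraries (log2 fold change -3.97 ± 0.41 (SE), adjusted p = 0.000586). The lowest B-2 library was several times above the highest B-1b library. Flt3, a cytokine receptor kinase of progenitors and dendritic cells, was at 0.973, 1.93 and 2.72 CPM in the B-1b libraries and 12.2, 17.9, 37.3 and 29.2 CPM in the B-2 libraries (log2 fold change -3.68 ± 0.48 (SE), adjusted p = 0.00235). The list of dendritic cell, neutrophil and mast cell genes that holds it had 11 tested members, with a median of -0.87 and 2 values above 0. Of these, 1 was called by edgeR, 5 had an unadjusted p under 0.05, and DESeq2, which tested 16, called 4, all lower in B-1b cells. Clec9a and Itgax, dendritic cell genes of the list, had means under 1 CPM in both groups and were not tested. The part of such cells in the level of Flt3 was not tested. Icosl, the ligand through which B cells engage ICOS on T cells, was at 14.2, 8.07 and 14.7 CPM in the B-1b libraries and 92.9, 72.95, 88.2 and 78.6 CPM in the B-2 libraries (log2 fold change -2.75 ± 0.25 (SE), adjusted p = 0.000268). Vpreb3, which binds immunoglobulin light chains during assembly, was at 18.9, 22.6 and 7.21 CPM in the B-1b libraries and 103, 126, 103 and 124 CPM in the B-2 libraries (log2 fold change -2.82 ± 0.34 (SE), adjusted p = 0.00186). Neurl3, a ubiquitin ligase, stood at 22.3, 26.7 and 14.2 against 139, 146, 159.9 and 190.2 CPM, and Zfp608, a zinc finger gene, at 1.75, 2.97 and 0.506 against 20.4, 21.5, 16.7 and 29.3 CPM (log2 fold changes -2.91 and -3.66, adjusted p = 0.000249 and 0.00302). Each of the 15 was lower in every B-1b library than in any B-2 library, by the rule that chose them.

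The other large falls were in genes of varied kinds. Lta, the cytokine lymphotoxin alpha, stood at 7.72, 8.41 and 3.92 against 33.4, 29.3, 40.3 and 46.3 CPM (log2 fold change -2.48, adjusted p = 0.00186). Ssbp2, a single-stranded DNA binding protein, and Pxdc1 fell, with log2 fold changes of -2.76 and -2.703. Pxdc1 was tight in both groups, at 13.6, 12.8 and 11.7 against 70.3, 76.6, 94.9 and 88.8 CPM. Dusp2, a phosphatase of MAP kinases, stood at 19.9, 19.1 and 3.86 against 96.3, 72.1, 79.8 and 61.9 CPM and Treml2 at 9.93, 11.3 and 0.632 against 50.7, 50.4, 58.1 and 56.7 CPM (adjusted p = 0.019 and 0.0451). In both, B-1b library 3 was far below the other B-1b libraries. The same library was lowest for Gpr171 (40.6, 35.4 and 22.3 against 199, 154, 161 and 78.1 CPM) and for Ms4a4c (171, 117 and 36.2 against 579.9, 401, 517 and 388 CPM), which had log2 fold changes of -2.18 and -2.13. Fits that left out 1 library raised the adjusted p to 0.0784 for Dusp2 and 0.0911 for Ms4a4c without B-2 library 2. For Treml2 it rose to 0.194 without B-1b library 1. Treml2 passed in 1 of the 7 such fits, and Dusp2 and Ms4a4c in 2 each.

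**Figure D2:**
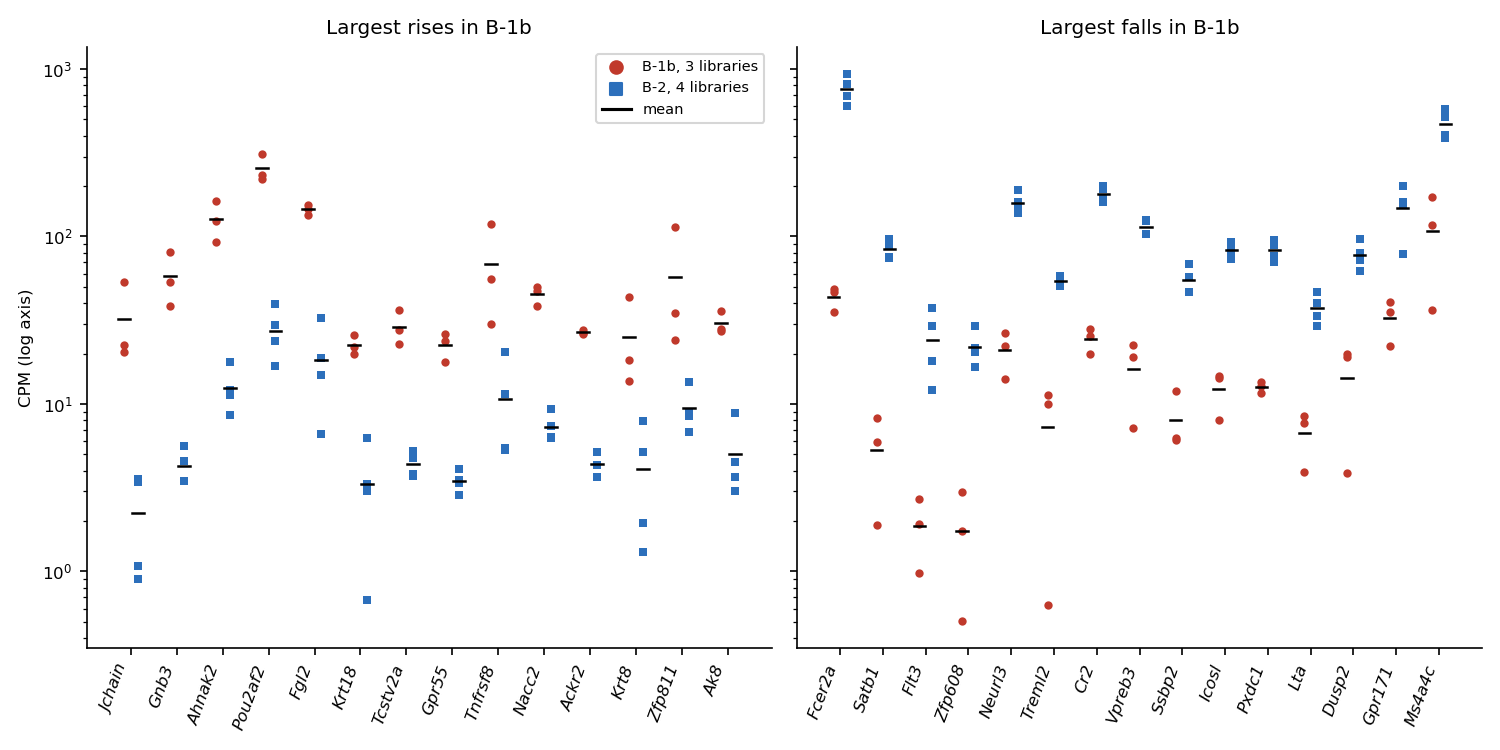
CPM on a log axis of 14 genes with the largest rises (left) and the 15 with the largest falls (right), with 1 point per library, circles for B-1b and squares for B-2 cells, and black bars for group means. No gene shown has overlapping groups, by the way the genes were chosen, and Treml2 spreads most among the B-1b libraries.

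Of 18 tested genes listed as B-1 regulators and surface markers, 9 rose in B-1b cells and none fell, with a median of 1.21 against -0.09 over all genes tested (1.34% of all genes were called higher and 0.788% lower). The list was drawn up with earlier results of these data known, so these values are a description and not independent support. The count with 1 library left out was 4 to 9 higher, with 5 higher without B-2 library 1 and 4 higher without B-2 library 2. It was 6 higher with the replicate number as a block, 2 higher with the receptor level as a covariate and 9 higher without both B-1b library 3 and B-2 library 4. Besides Zbtb32 and Bhlhe41, Ctla4, an inhibitory receptor of the CD28 family, was at 78.8, 85.1 and 73.3 CPM in the B-1b libraries and 15.97, 10.1, 18.5 and 9.796 CPM in the B-2 libraries (log2 fold change 2.53 ± 0.25 (SE), adjusted p = 0.000388). Fcrl5, an Fc receptor-like protein that modulates B cell receptor signals, was at 192, 136 and 143 against 49.02, 26.9, 42.8 and 18.7 CPM (log2 fold change 2.19 ± 0.304 (SE), adjusted p = 0.00337). Both were clear of the B-2 range in each B-1b library. Plscr1, a phospholipid scramblase, Cd300lf, a receptor for membrane lipids, and Spn, which encodes CD43, rose by 2.18, 2.23 and 1.396 on the log2 scale. Arid3a, a DNA-binding factor of B-1 cells, rose by 1.34, and Pdcd1lg2, which encodes PD-L2, by 1.07. Values above 0 were seen in 15 of the 18, and the members below 0 did not pass. Members above 0 that did not pass included Cd9 (0.51), Itgam, which encodes CD11b (0.395), Il5ra (0.97) and Cd5 (0.64). Calls that were lost without 1 library had adjusted p up to 0.0517 for Plscr1, 0.0867 for Spn and 0.168 for Arid3a without B-2 library 2. For Pdcd1lg2 it reached 0.131 without B-1b library 1. Of the 7 such fits, Plscr1 passed in 6, Spn in 4, Arid3a in 3 and Pdcd1lg2 in 1.

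Of 25 B-2 and follicular markers, 8 were lower in B-1b cells and none higher, with a median of -0.42. This list was also drawn up with earlier results of these data known, so its counts are a description only. The 8 were Fcer2a and Ighd, whose products CD23 and IgD entered the sort, and Cr2, Icosl, Satb1, Vpreb3, Ccr7 and Bach2. The count with 1 library left out was 0 to 1 higher and 7 to 8 lower. It was 8 lower with the replicate number as a block, 9 lower with the receptor level as a covariate and 10 lower without both B-1b library 3 and B-2 library 4. The median became -0.64 without B-1b library 2. Ccr7, the receptor that guides lymphocytes into lymph nodes, was at 305, 237 and 175 CPM in the B-1b libraries and 802, 659, 787 and 390.3 CPM in the B-2 libraries (log2 fold change -1.46 ± 0.29 (SE), adjusted p = 0.0266). Bach2, a repressor that holds back plasma cell differentiation, was at 36.5, 44.7 and 34.3 against 87.5, 94.1, 82.1 and 123 CPM (log2 fold change -1.33 ± 0.21 (SE), adjusted p = 0.00708). Cxcr5, Klf2 and Foxp1 had values above 0 (0.58, 0.53 and 0.23) without passing. With 1 library left out, the highest adjusted p reached 0.108 for Ccr7 without B-1b library 3. Ccr7 passed in 1 of the 7 such fits.

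Transcription factors of B cell identity moved in both directions, with 4 of 39 higher, 4 lower and a median of -0.12. The count with 1 library left out was 0 to 3 higher and 3 lower, with 1 higher and 3 lower without each of B-1b library 1, B-1b library 2 and B-2 library 2, 2 higher and 3 lower without each of B-1b library 3 and B-2 library 4 and 0 higher and 3 lower without B-2 library 1. It was 1 higher and 3 lower with the replicate number as a block, 1 higher and 1 lower with the receptor level as a covariate and 4 higher and 3 lower without both B-1b library 3 and B-2 library 4. Zbtb20, a repressor tied to long-lived plasma cells, was at 213, 208 and 311 against 96.04, 124, 78.5 and 92.2 CPM (log2 fold change 1.32 ± 0.22 (SE), adjusted p = 0.0102). Zeb2, Ikzf3, which encodes Aiolos, and Tcf4, an E protein, rose by 1.11, 0.98 and 0.87 on the log2 scale. Bcl6, the master repressor of the germinal centre, was at 7.398, 7.72 and 8.15 against 25.4, 26.2, 23.5 and 18.4 CPM (log2 fold change -1.59 ± 0.23 (SE), adjusted p = 0.00472), and Id3, an inhibitor of E proteins, at 84.6, 70.96 and 67.01 against 127, 115, 194 and 156 CPM (log2 fold change -0.9996 ± 0.22 (SE), adjusted p = 0.0414). The core B lineage factors Pax5, Ebf1 and Pou2af1 did not pass, at -0.28, 0.01 and -0.06. Their standard errors were 0.21, 0.18 and 0.29. The least favourable fit without 1 library gave adjusted p = 0.0641 for Zbtb20 without B-2 library 1. It gave 0.164 for Zeb2 and 0.163 for Ikzf3 without B-2 library 2. Without B-1b library 1 it gave 0.162 for Tcf4 and 0.128 for Id3. Of the 7 such fits, Id3 passed in 0, Zeb2 and Ikzf3 in 1 each, Tcf4 in 2 and Zbtb20 in 6.

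Genes of plasma cells and antibody secretion had 4 of 27 higher, none lower and a median of 0.397, and 24 of the 27 had values above 0. The count with 1 library left out was 2 to 4 higher, with 2 higher without each of B-1b library 1, B-1b library 2, B-2 library 1 and B-2 library 2. It was 2 higher with the replicate number as a block, 2 higher with the receptor level as a covariate and 5 higher without both B-1b library 3 and B-2 library 4. The median became 0.09 with the receptor covariate and 0.23 without B-2 library 4. With Jchain rose Derl3, which moves misfolded proteins out of the endoplasmic reticulum (28.9, 23.8 and 44.2 against 7.85, 6.03, 8.92 and 8.44 CPM, log2 fold change 2.05 ± 0.26 (SE), adjusted p = 0.00235), Mzb1, an endoplasmic reticulum chaperone of B-1 and marginal zone cells (116, 124 and 69.5 against 36.9, 38.7, 47.2 and 24.7 CPM, log2 fold change 1.48 ± 0.26 (SE), adjusted p = 0.013), and Pdia4, a disulfide isomerase (log2 fold change 1.24, adjusted p = 0.0473). None of the defining plasma cell genes passed the test: Prdm1, the gene of Blimp-1, averaged 4.01 against 2.01 CPM, Sdc1, which encodes CD138, 1.43 against 5.51 CPM, and Xbp1 247 against 164 CPM. Tnfrsf17, which encodes BCMA, was too low to be tested. Some calls were lost without 1 library, with adjusted p up to 0.0761 for Mzb1 and 0.213 for Pdia4, both without B-2 library 2. Of the 7 such fits, Mzb1 passed in 3 and Pdia4 in 1.

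The annexin, S100 and Ahnak list, mostly genes of calcium-dependent membrane scaffolds, had 5 of 19 higher and none lower, with a median of 0.75. Lgals1, which belongs to none of these families, was in the list and among the 5. The count with 1 library left out was 2 to 4 higher, with 2 higher without each of B-1b library 1, B-1b library 2, B-2 library 1 and B-2 library 2 and 3 higher without B-2 library 4. It was 1 higher with the replicate number as a block, 1 higher with the receptor level as a covariate and 7 higher without both B-1b library 3 and B-2 library 4. The median became 0.35 with the receptor covariate. The summed level of the list did not overlap between the groups, at 9931 to 11558 CPM in B-1b cells and 4583 to 8339 CPM in B-2 cells. S100a6 stood at 2076, 2778 and 1536 against 708, 599, 1012 and 548 CPM (log2 fold change 1.57 ± 0.28 (SE), adjusted p = 0.0139), and Lgals1, a galactose-binding lectin, at 412, 583 and 374 against 116, 115, 169 and 118 CPM (log2 fold change 1.82 ± 0.23 (SE), adjusted p = 0.00203). Anxa2 and S100a4 rose by 1.28 and 1.74 on the log2 scale beside Ahnak2. Anxa1 was below 0 (-0.81, adjusted p = 0.216). Itgb1, the integrin beta 1 chain, was the 1 call among 22 integrin and adhesion genes, at 517, 449 and 526 CPM in the B-1b libraries and 211, 129, 186 and 76.9 CPM in the B-2 libraries (log2 fold change 1.72 ± 0.298 (SE), adjusted p = 0.0124). Fits that left out 1 library raised the adjusted p to 0.0885 for S100a6, 0.159 for Anxa2 and 0.0888 for Itgb1 without B-2 library 2. For S100a4 it rose to 0.147 without B-1b library 2. Of the 7 such fits, Anxa2 and S100a4 passed in 1 each, S100a6 in 3 and Itgb1 in 6.

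Of 27 B cell receptor signalling genes, 1 was called, beside 2.12% of all genes tested. Rasgrp3, an activator of Ras downstream of the receptor, was at 36.9, 35.997 and 20.6 CPM in the B-1b libraries and 133, 126, 128 and 123 CPM in the B-2 libraries (log2 fold change -2.04 ± 0.23 (SE), adjusted p = 0.00108). It was about equally low in B-1b libraries 1 and 2 and lower still in library 3. The receptor chains Cd79a and Cd79b and the kinases Syk, Lyn, Blk and Btk did not pass, with log2 fold changes from -0.04 to 0.74. Of 26 inhibitory receptors and adaptors, Ctla4, Fcrl5 and Ptpn22, a tyrosine phosphatase that dampens receptor signals (315, 379 and 455 against 86.2, 102, 173 and 58.4 CPM, log2 fold change 1.87 ± 0.32 (SE), adjusted p = 0.011), rose. Cd72 (73.7, 48.96 and 36.2 against 147, 136, 137 and 186 CPM, log2 fold change -1.51 ± 0.25 (SE), adjusted p = 0.0105) and Fcrl1 (log2 fold change -0.99, adjusted p = 0.0262) fell. Among 24 costimulation genes Cd274, which encodes PD-L1, rose with Pdcd1lg2, at 46.6, 57.9 and 56.4 against 24.9, 18.8, 23.6 and 21.6 CPM (log2 fold change 1.27 ± 0.19 (SE), adjusted p = 0.00507), and Icosl fell. Calls that were lost without 1 library had adjusted p up to 0.0784 for Ptpn22 without B-2 library 2. Without B-1b library 2 it reached 0.0605 for Cd72 and 0.106 for Fcrl1. Of the 7 such fits, Ptpn22 passed in 5, Cd72 in 6 and Fcrl1 in 2.

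Receptors for chemokines, cytokines and Fc differed in a few members each, beside 1.34% of all genes tested called higher and 0.788% lower. Of 24 trafficking genes, Gpr55 rose, and Ccr6, a receptor for CCL20, Ccr7 and Gpr174, a receptor for lysophosphatidylserine, fell. Ccr6 was at 6.94, 6.14 and 1.71 against 17.97, 24.4, 23.4 and 18.9 CPM (log2 fold change -2.102 ± 0.41 (SE), adjusted p = 0.0258) and Gpr174 at 24.3, 32.5 and 17.6 against 61.2, 72.3, 69.2 and 80.6 CPM (log2 fold change -1.52 ± 0.23 (SE), adjusted p = 0.00651). Of 26 cytokine genes, Csf2rb, the common beta chain of the IL-3, IL-5 and GM-CSF receptors, rose (139.5, 150.1 and 247 against 53.4, 55.8, 61.6 and 43.9 CPM, log2 fold change 1.74 ± 0.23 (SE), adjusted p = 0.00271), while Lta and Il21r (100.3, 81.7 and 62.7 against 159.5, 148, 207 and 141 CPM, log2 fold change -1.01 ± 0.22 (SE), adjusted p = 0.0418) fell. Il10, for which B-1 cells are known, was near the floor, with means of 1.25 and 0.706 CPM. Of 20 Fc and complement receptor genes, Fcrl5 rose and Fcer2a, Cr2 and Fcrl1 fell. Of 15 MHC class II genes, H2-Eb2 fell (7.79, 13.8 and 6.57 against 30.6, 32.8, 25.6 and 40.3 CPM, log2 fold change -1.79 ± 0.29 (SE), adjusted p = 0.00948). Cd74, H2-Aa, H2-Ab1 and H2-Eb1 had log2 fold changes between -0.08 and -0.02. With 1 library left out, the highest adjusted p reached 0.118 for Ccr6 and 0.0516 for H2-Eb2 without B-2 library 2. For Il21r it reached 0.125 without B-1b library 3. Of the 7 such fits, Il21r passed in 1, Ccr6 in 2 and H2-Eb2 in 6.

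Other lists held few calls, beside 2.12% of all genes tested (1.34% higher and 0.788% lower). Of the TET, DNMT and linked enzymes, Apobec1, a cytidine deaminase of RNA (206, 219 and 290.1 against 101, 75.5, 127 and 62.7 CPM, log2 fold change 1.38 ± 0.25 (SE), adjusted p = 0.0166), rose, and Tet3, Dnmt1 and Dnmt3a did not pass (-0.33, -0.13 and 0.05). Of 25 immediate early genes, Atf3 (80.3, 55.3 and 44.6 against 18.1, 11.004, 14.02 and 6.16 CPM, log2 fold change 2.28 ± 0.33 (SE), adjusted p = 0.00472) and Myc (298, 252 and 261 against 131, 96.6, 146 and 52.9 CPM, log2 fold change 1.34 ± 0.29 (SE), adjusted p = 0.0413) rose and Dusp2 fell. Of 23 glycolysis genes Pfkfb3 and Tpi1 rose, by 1.38 and 0.896 on the log2 scale. Of 36 cell cycle genes 1 rose, Ccne1, which encodes cyclin E1 (34.5, 28.7 and 32.7 against 11.4, 10.5, 15.6 and 14.7 CPM, log2 fold change 1.29 ± 0.22 (SE), adjusted p = 0.0105), and the proliferation marker Mki67 averaged 3.78 and 3.42 CPM. Of 34 lipid genes Plin3, a lipid droplet coat protein, rose by 0.87, and of 15 heat shock genes Hspb1 by 2.897. The edgeR fit called none of 19 Toll-like receptor and innate sensing genes, 8 GIMAP genes, 15 BCL2 family genes and 30 interferon-stimulated genes, of which 9, 2, 5 and 4 had an unadjusted p under 0.05. DESeq2 called 2, 1, 5 and 1 of these. The Toll-like receptor list had a median of 0.52. The least favourable fit without 1 library gave adjusted p = 0.101 for Apobec1, 0.192 for Myc and 0.0712 for Ccne1 without B-2 library 2. It gave 0.216 for Tpi1 and 0.191 for Plin3 without B-1b library 1, and 0.112 for Hspb1 without B-1b library 2. Of the 7 such fits, Tpi1 and Plin3 passed in 1 each and Myc in 2. Apobec1, Ccne1 and Hspb1 passed in 4 each.

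Apart from the macrophage list, edgeR made 3 calls in the lists that mark other cells, which were Krt8, Krt18 and Flt3. Of all genes tested, 2.12% were called. Of the 6 mesothelial and stromal genes tested, edgeR called 2, and 3 had an unadjusted p under 0.05. DESeq2 tested 14 in that list and called 2 higher and 5 lower. No T cell or NK cell gene passed of 14, with a summed level of 945 to 1326 CPM in B-1b cells and 613 to 1234 in B-2 cells, most of it from Cd2, which B cells also express. None of 7 erythroid and platelet genes and none of 4 sex-linked genes passed, by edgeR, with 1 and 0 at an unadjusted p under 0.05 and 1 and 0 by DESeq2. Mast cell genes were present in both groups, with means of 220.1 and 402 CPM for Tpsb2 and 107 and 189 CPM for Cpa3, in B-1b and B-2 cells.

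**Figure D3:**
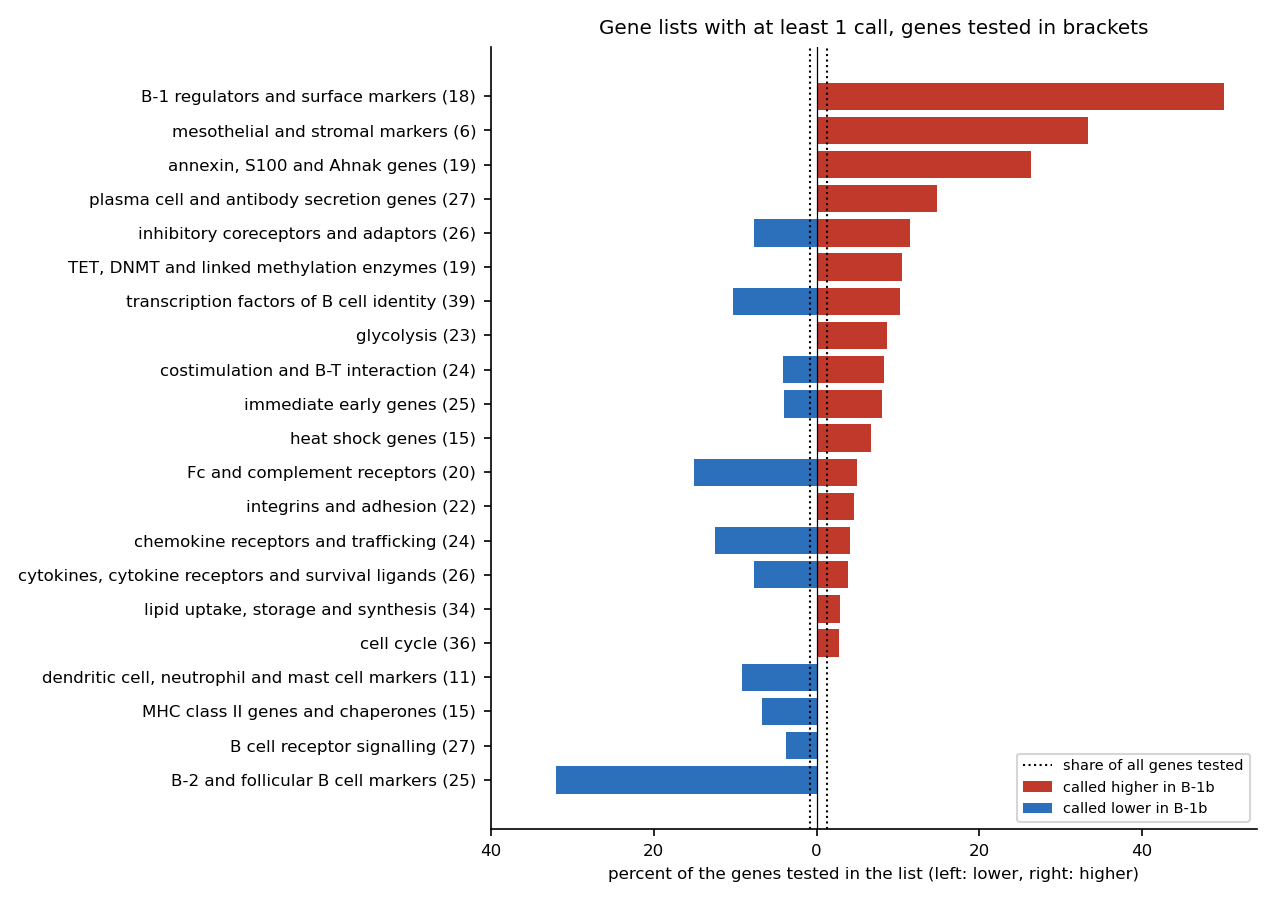
Bars give, for each gene list with at least 1 call, the percent of its tested genes called higher (red, right) and lower (blue, left) in B-1b cells, with the number tested in brackets and dotted lines at the shares over all genes tested (1.34% higher, 0.788% lower). The B-1 list reaches furthest to the right and the B-2 list furthest to the left, and both were drawn up with earlier results of these data known.

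The heavy chain constant genes showed which isotypes the cells transcribed. Shares were taken of the counts over all Igh constant genes, which rest on 88804 to 323271 counts per library, and were set against each other over the libraries by an exact permutation test with both sides counted, in which 0.0571 is the smallest p that 3 against 4 libraries allow. Ighm and Ighd are spliced from 1 primary transcript, and counting did not use strand. Ighm made up 93.9, 94.4 and 91.5% in the B-1b libraries and 75.6, 75.3, 76.9 and 69.7% in the B-2 libraries. Ighd, whose product was part of the sort, made up 3.16, 2.76 and 3.58% in the B-1b libraries and 23.98, 24.3, 22.7 and 29.6% in the B-2 libraries. The B-1b libraries held nearly all of their heavy constant counts in Ighm, while a much larger part fell on Ighd in B-2 cells, and neither share overlapped (exact permutation p = 0.0571 for each, 0.0643 after Benjamini-Hochberg adjustment over the 9 heavy chain shares). Since B-1b cells were sorted as IgDlo, the Ighd share is a check of the gate and not a finding. The Ighm share is nearly the complement of the Ighd share, so its test is not a separate result.

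Counts of the Ighg genes and Igha were a small part of the heavy constant counts and higher in B-1b cells. Whether these transcripts were joined to a V gene cannot be read from gene counts. The 4 Ighg genes together made up 2.601, 2.47 and 4.25% in the B-1b libraries and 0.2902, 0.322, 0.277 and 0.526% in the B-2 libraries (95% Wilson interval 2.55 to 2.66% in B-1b library 1 and 0.267 to 0.316% in B-2 library 1, which cover counting error only). Ighg3 was the main one, at 1.52, 1.63 and 3.12% against 0.177, 0.247, 0.20996 and 0.328% of heavy constant counts. In CPM it was at 319, 346 and 514 CPM in the B-1b libraries and 22.4, 29.3, 33.9 and 24.6 CPM in the B-2 libraries (log2 fold change 3.83 ± 0.24 (SE), adjusted p = 2.37e-05). Ighg2b was at 213, 156 and 168 CPM in the B-1b libraries and 14.1, 8.31, 10.1 and 13.7 CPM in the B-2 libraries (log2 fold change 3.96 ± 0.24 (SE), adjusted p = 2.37e-05). Igha was at 60.9, 75.9 and 103 CPM in the B-1b libraries and 15.9, 13.7, 16.7 and 9.88 CPM in the B-2 libraries (log2 fold change 2.51 ± 0.24 (SE), adjusted p = 0.000388). All 3 isotypes were several times higher in each B-1b library than in any B-2 library. Ighg2c stood at 6.55, 15.5 and 10.999 against 0.207, 0.0815, 0.299 and 1.18 CPM and Ighg1 at 6.62, 5.9995 and 8.03 against 0, 0.489, 0.419 and 0 CPM, with B-2 libraries near or at 0 counts, and both passed the test (adjusted p = 0.00965 and 0.0373). Ighe was at 0 in 5 of 7 libraries. Ighm itself had a log2 fold change of 1.02 ± 0.298 (SE) and missed the threshold (adjusted p = 0.108), and Ighd fell by 2.27 (adjusted p = 0.000744). Some calls were lost without 1 library, with adjusted p up to 0.0536 for Ighg2c without B-2 library 1 and 0.0999 for Ighg1 without B-2 library 2. Ighg1 passed in 0 of the 7 fits that left out 1 library and Ighg2c in 5.

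Light chains leaned towards lambda in B-1b cells. The lambda constant genes together made up 34.9, 41.1 and 35.6% in the B-1b libraries and 24.02, 26.5, 24.3 and 30.1% in the B-2 libraries of the light constant counts, and kappa the remainder. The groups did not overlap (exact permutation p = 0.0571, adjusted p = 0.0857 over 6 light chain shares). Iglc2 made up 18.6, 22.6 and 20.9% against 11.6, 13.2, 11.5 and 14.5% and Iglc1 7.36, 8.18 and 6.88% against 3.86, 3.92, 4.21 and 5.15%, both without overlap, whereas Iglc3 made up 8.86, 10.3 and 7.86% against 8.57, 9.36, 8.57 and 10.4% and overlapped (exact permutation p = 0.857). In the V genes, Iglv2 held 51.7, 52.2 and 66.5% against 29.8, 38.9, 37.8 and 29.8% of Iglv counts, and its level was 1716, 2909.9 and 1286 CPM in the B-1b libraries and 266, 341, 415 and 164 CPM in the B-2 libraries (log2 fold change 2.73 ± 0.35 (SE), adjusted p = 0.00235). Igkc did not differ past the threshold in level (log2 fold change -0.05, adjusted p = 0.945). Near-identical lambda genes share reads, and reads that matched several places were not counted, so single Iglc and Iglv values are uncertain. The size of the lambda part also depended on the genes counted. V genes gave 12991 Iglv beside 110099 Igkv counts in B-2 library 1, and 51145 beside 119671 in B-1b library 1. By V genes the lambda part was smaller in both libraries than by constant genes, and more so in the B-2 library. The cause was not tested.

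**Figure D4:**
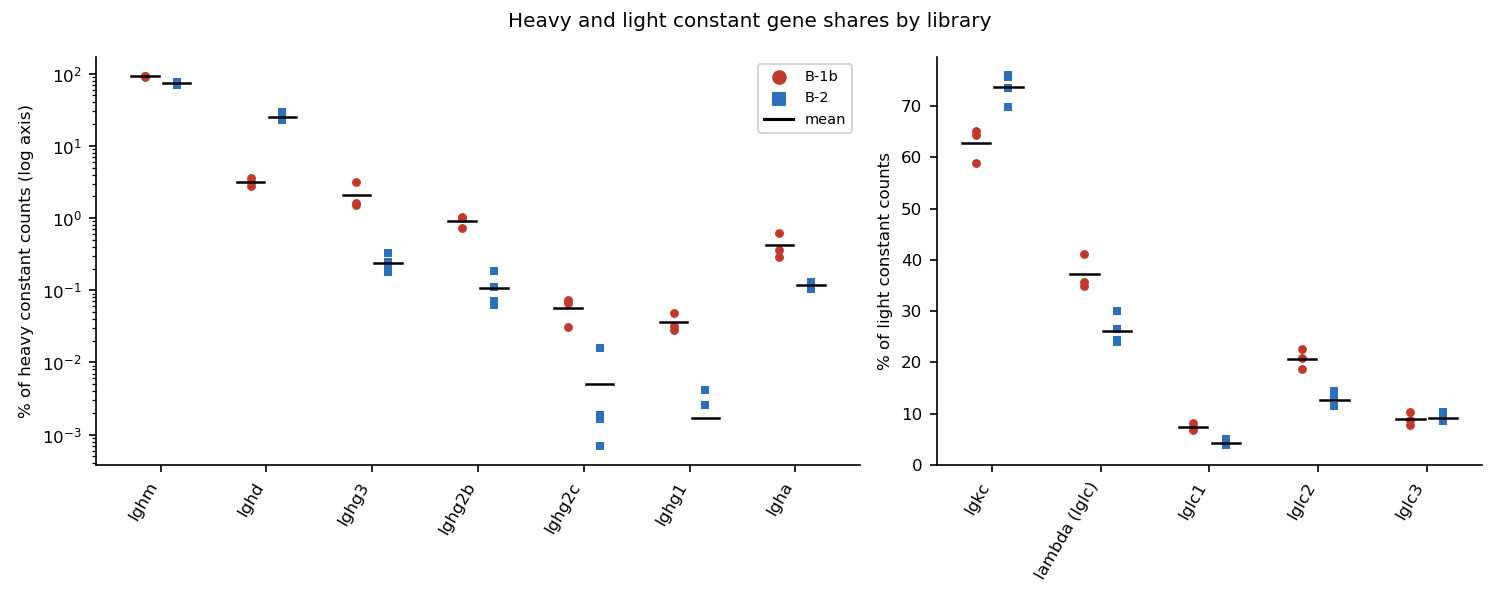
Shares of heavy constant counts on a log axis (left) and of light constant counts on a linear axis (right), in percent, with 1 point per library, circles for B-1b and squares for B-2 cells, and bars for means. Ighd is lower and every Ighg gene and Igha higher in all B-1b libraries, lambda is higher, Iglc3 overlaps, and the 2 B-2 libraries with no Ighg1 count are not drawn.

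Of 242 immunoglobulin genes tested, 17 were higher and 15 lower in B-1b cells (7.02% and 6.2%, or 13.2% together), beside 1.97% of the other genes. Without B-2 library 1 there were 21 calls and without B-2 library 2 there were 17. The 32 comprised 7 of 102 Ighv genes higher and 5 lower, 4 of 108 Igkv genes higher and 9 lower, 5 of 7 heavy constant genes higher and 1 lower, and 1 of 2 Iglv genes higher. The Ighv genes had a median log2 fold change of 0.12 and the Igkv genes of -0.57. The 5 V genes with the largest rises were Ighv12-3 (107, 529 and 129.6 against 3.51, 28.04, 11.7 and 1.69 CPM, adjusted p = 0.0387), Igkv4-91 (259, 1045 and 279.7 against 53.4, 64.3, 70.4 and 38.5 CPM, adjusted p = 0.00397), Ighv1-11, Ighv7-1 and Iglv2 (log2 fold changes 4.51, 3.22, 3.13, 2.74 and 2.73). The 5 with the largest falls were all kappa genes. Igkv13-84 stood at 12.3, 18.8 and 3.73 against 82.7, 99.6, 101 and 63.3 CPM and Igkv3-4 at 26.8, 32.1 and 10.6 against 165, 146, 186 and 114 CPM (adjusted p = 0.00635 and 0.00235). Igkv12-41, Igkv4-72 and Igkv3-12 had log2 fold changes of -2.53, -1.73 and -1.63. Fits that left out 1 library raised the adjusted p to 0.057 for Igkv4-72 and 0.141 for Igkv3-12, both without B-2 library 2. Of the 7 such fits, Igkv4-72 passed in 5 and Igkv3-12 in 2.

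Heavy V families are groups of related V genes, and their shares of all Ighv counts shifted. VH1, the largest family, made up 31.5, 24.6 and 22.3% in the B-1b libraries and 49.1, 51.6, 49.5 and 56.3% in the B-2 libraries. VH6 made up 19.2, 19.2 and 20.1% in the B-1b libraries and 6.97, 8.73, 6.13 and 4.39% in the B-2 libraries, nearly constant among the B-1b libraries. VH12, a family of 1 main gene, made up 4.55, 20.7 and 5.65% in the B-1b libraries and 0.255, 1.97, 0.641 and 0.216% in the B-2 libraries, with B-1b library 2 far above the others. Without that library the mean difference fell from 9.52 to 4.33 percentage points. VH4 was also higher without overlap (3.36, 1.76 and 2.03% against 1.12, 0.574, 0.931 and 0.736%) and VH14 lower (1.22, 1.11 and 2.63% against 4.26, 3.79, 3.42 and 4.77%). VH7 was higher without overlap by less (4.00, 4.02 and 3.63% against 3.05, 2.51, 2.64 and 2.63%). These 6 of the 16 families did not overlap, and each had an exact permutation p of 0.0571 (0.152 adjusted over 16 families). VH11 was at 7.94, 3.72 and 10.6% against 4.92, 1.09, 4.04 and 2.13% and overlapped (exact permutation p = 0.171). Within families, Ighv6-3 carried most of VH6, with 13.4, 14.8 and 18.2% against 4.798, 6.75, 4.01 and 2.68% of Ighv counts and log2 fold change 2.49 ± 0.39 (SE), adjusted p = 0.00729 in level. Ighv1-26 and Ighv1-64 were lower in share (1.195, 0.941 and 1.07% against 3.37, 3.705, 3.81 and 3.35% and 1.41, 1.41 and 0.7996% against 2.95, 3.705, 3.43 and 4.33%) without overlap, though their levels did not pass (adjusted p = 0.112 and 0.184). Ighv5-17 was at 1.59, 1.08 and 14.4% against 3.099, 3.47, 5.67 and 2.54%, set by B-1b library 3, and Ighv1-55 at 4.22, 3.49 and 4.77% against 3.58, 3.15, 5.12 and 5.11%, and both overlapped.

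VH12 with Igkv4-91, and VH11 with Igkv14-126, are the pairs known to form antibodies to phosphatidylcholine, a membrane lipid, in B-1 cells. Igkv4-91 held 3.33, 12.2 and 5.39% in the B-1b libraries and 0.704, 0.897, 0.788 and 0.787% in the B-2 libraries of Igkv counts. Like VH12 it was highest in B-1b library 2. Igkv14-126 held 6.97, 3.35 and 11.4% in the B-1b libraries and 3.08, 0.884, 2.81 and 1.696% in the B-2 libraries, without overlap, and like VH11 it was highest in B-1b library 3 and lowest in B-2 library 2. On the log2 scale their levels differed by 3.22 for Igkv4-91 (adjusted p = 0.00397), 1.58 for Igkv14-126 (adjusted p = 0.103) and 1.96 for Ighv11-2 (adjusted p = 0.105), and the last pair of these missed the threshold. Which heavy and light chains were paired in a cell cannot be read from these counts. Igkv6-15 and Igkv1-135 were lower in share without overlap (4.07, 3.17 and 1.9001% against 5.298, 5.54, 5.06 and 5.48% and 2.61, 1.88 and 1.57% against 3.59, 3.18, 3.53 and 2.83%), while Igkv1-117 (9.71, 7.4005 and 5.38% against 7.53, 7.89, 7.04 and 7.28%), Igkv1-110 (9.46, 7.32 and 5.62% against 6.45, 5.56, 5.96 and 5.17%), Igkv12-89 (5.79, 4.29 and 6.58% against 2.03, 0.677, 3.66 and 4.96%) and Igkv12-44 (1.28, 3.199 and 1.13% against 2.47, 5.05, 2.46 and 2.48%) overlapped.

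**Figure D5:**
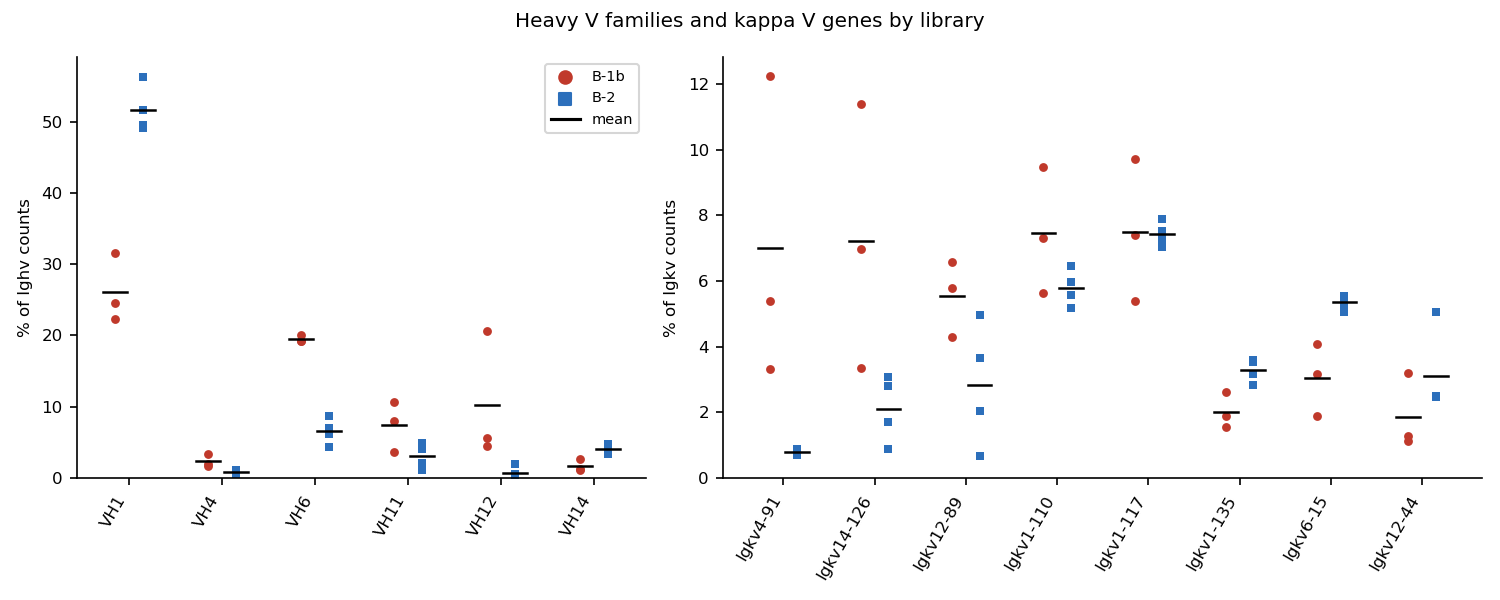
Shares of Ighv counts for 6 heavy V families (left) and of Igkv counts for 8 kappa V genes (right), in percent on linear axes from 0, with 1 point per library, circles for B-1b and squares for B-2 cells, and bars for means. VH1 is lower and VH6 higher in every B-1b library, and single B-1b libraries stand out for VH12, Igkv4-91 and Igkv14-126.

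Against B-1a cells of the same genotype (4 libraries), B-1b cells differed in 13 of 18306 other genes (0.071%), 11 of them higher (0.0601%), and in 25 of 249 immunoglobulin genes (10%), all of them higher. The 38 calls fell to 20 without B-1a library 3, to 15 without B-1b library 1 and to 21 without B-1b library 2. This fit shares the B-1b libraries with the comparison above. Of the 217 other genes higher in B-1b than in B-2 cells, none was called higher and 1 lower in B-1b than in B-1a cells, and the median of that difference was -0.14 on the log2 scale. Of the 123 lower genes, 6 were called higher in B-1b than in B-1a cells. Fcer2a, Vpreb3 and Pxdc1 were among these, at log2 fold changes of 1.83, 2.22 and 2.03 (adjusted p = 0.0375, 0.0317 and 0.0218). The gene of the 217 that was lower was Tcstv2a (-1.54, adjusted p = 0.0497). Cd5, by which both subsets were sorted, was also lower (-2.28). Zbtb32 and Bhlhe41 did not pass between them (-0.03 and -0.62). Of the immunoglobulin genes, Ighg2b, Ighg3 and Igha were higher in B-1b than in B-1a cells by 3.58, 2.504 and 1.67 on the log2 scale (adjusted p = 0.0114, 0.00445 and 0.0219). Igkv3-4 and Igkv3-12, which were lower in B-1b than in B-2 cells, were higher than in B-1a cells (2.09 and 2.74, adjusted p = 0.0236 and 0.0413).

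Promoters of the called genes were searched for 3 motifs, on both strands, in the 300 bases from 250 before to 50 after the start given by RefSeq (build GRCm38.p6). A promoter was given for 157 of the 217 higher genes, 92 of the 123 lower genes and 11165 of all other gene symbols tested. The E-box CACGTG, which Bhlhe41 and related factors bind, was in 11.5% and 14.1% of the promoters of higher and lower genes, beside 10.9% of all. The octamer ATGCAAAT, bound by POU factors, was in 2.55% and 4.35%, beside 1.73%, and the AP-1 motif TGACTCA in 5.73% and 4.35%, beside 4.76%. These shares rest on between 4 and 18 promoters of called genes each, and a match describes letters only. Bhlhe41 has an E-box ahead of its own start, shown here in capitals, 153 to 148 bases before it.
Bhlhe41, GRCm38.p6 chr6:145865528-145865613, minus strand: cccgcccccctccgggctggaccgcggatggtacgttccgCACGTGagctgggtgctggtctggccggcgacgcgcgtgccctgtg
No match to any of the 3 motifs lay in the windows given for Zbtb32, Cr2, Satb1 or Jchain.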

How the data were processed

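RNA of sorted peritoneal B-1b (3 libraries), B-2 (4) and B-1a cells (4) of TET2-KO mice was sequenced as full-length cDNA by a low-input protocol with paired reads. According to the labels and methods, the authors used fastp for trimming, STAR with the GRCm39 genome for alignment, and featureCounts with GENCODE vM32 for unstranded fragment counts of genes. The deposited values are these raw counts, whole numbers that are not normalized. Fragments matching several places or genes were not counted, which lowers genes with near-identical copies, V genes among them. The sources describe the library preparation in different ways.

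Counts of 56953 genes were joined, and 56310 identifiers matched a symbol in GENCODE vM39. Genes passing edgeR's filterByExpr were scaled by TMM and tested by edgeR's quasi-likelihood test (glmQLFit and glmQLFTest, edgeR 4.0.16, R 4.3.3) with the 7 libraries of both groups and Benjamini-Hochberg adjustment over all genes. CPM are counts scaled to 1000000 of the TMM-scaled library size, so they compare libraries, not genes. Depth was 9667187 to 17903063 counts, and values under about 3 counts per library are at the floor. Shares were compared by an exact permutation test (scipy 1.17.1). Scripts were tested on simulated data. The genes named are the 15 with the largest change in each direction among protein-coding genes with an adjusted p under 0.05, groups that do not overlap and a mean of 20 CPM or more, the list members described, all constant genes, the 5 V genes with the largest share or change, and the markers, a few of which are not reported here. The members and lists were chosen with earlier results of these data known. Alternatives were DESeq2 1.42.0, other scalings, filters, covariates, thinned counts, a replicate block and each library left out. The 10 wild-type libraries were left out because of the labels.

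Of 584 listed symbols, 1 was not matched, March1, an older name of Marchf1. V gene ends were read from GRCm39, the build of the counts, and promoters came from RefSeq (GRCm38.p6). Libraries of B-1b and B-2 cells share the numbers 1 to 3. Over 17264 genes, without the immunoglobulin genes, the deviations of same-numbered libraries from their group means correlated at 0.093, 0.203 and 0.0075. The numbers were therefore not taken as pairs, though these correlations do not settle the pairing.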

Additional observations from a re-analysis of the deposited data

Results flagged for a closer look

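In the 4 B-2 libraries, 1 library lay far from the others for 4 of 151 values examined, by the gap between the extreme library and its neighbour, and chance gives about 1 in 20. Zeb2 was at 24.1 CPM in B-2 library 3, below the other B-2 libraries (37.0 to 38.0 CPM), and Lgals1 was at 169 CPM in the same library, above the others (115 to 118 CPM). Neither value reached the B-1b range. The Ighg2c share of heavy constant counts was 0.0158% in B-2 library 4, above the other B-2 libraries. Igkv12-44 held 5.05% of Igkv counts in B-2 library 2, against 2.46 to 2.48% in the others. Its share in B-1b libraries 1 to 3 was 1.28, 3.20 and 1.13%, so library 2 was the highest there as well. The groups of 3 B-1b libraries were not examined in this way.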

How the results depend on the processing

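The 90 named genes that were called kept their direction in every alternative that gave them a value, which was 86 of them with at least 10 counts required in every library and all 90 in the other fits. Of these, 32 passed in every fit run and 49 passed without each library in turn. All 90 passed in DESeq2, 37 with the olfactory and vomeronasal receptor level as a covariate, 77 with the macrophage marker level and 85 without both B-1b library 3 and B-2 library 4, the last 2 chosen after the data were seen. Counts of calls moved more. Over all genes, the 372 calls (234 higher, 138 lower) became 3135 with DESeq2 (556 higher, 2579 lower), 808 with no filter (395 and 413), 81 with the receptor covariate (40 and 41), 709 without both libraries (452 and 257), and 114 to 335 with 1 library left out. Over the other genes, 340 became 3065, 755 (365 higher, 390 lower), 67, 648 and 97 to 312 in the same order. Over the immunoglobulin genes, 32 became 70 (30 higher, 40 lower), 53, 14 (4 and 10), 61 (27 and 34) and 17 to 31, and 16 with all 3 TET2-KO groups in 1 fit. B-1b against B-1a calls went from 38 to 139 with DESeq2, 123 with no filter and 15 to 57 with 1 library left out. Size factors other than TMM, leaving immunoglobulin genes out of the scaling, thinning and a minimum of 10 counts kept each count over the other genes within 1.5 times.

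With the replicate number as a block, 151 genes were called in all, 126 of them other genes (120 among the 340) and 25 immunoglobulin genes, and 103 between B-1b and B-1a cells. The same-numbered libraries correlated at 0.093, 0.203 and 0.0075, not each above 0.1. B-2 library 3 correlated best with B-1b library 1 (0.182), so these correlations do not settle the pairing. Library 1 stood apart in both groups for some values. The interferon-stimulated list summed to 2349 CPM in B-1b library 1 and 2556 CPM in B-2 library 1. In the other libraries it summed to 927 to 1138 and 823 to 1093 CPM. Immunoglobulin genes were not in the correlations. The VH12 share was highest in library 2 of both groups (20.7% in B-1b and 1.97% in B-2 cells). The VH11 share was lowest in library 2 of both (3.72% and 1.09%). The VH6 share went otherwise, highest in B-1b library 3 and B-2 library 2. Mitochondrial counts made up 1.34, 2.08 and 1.93% in B-1b libraries 1 to 3 and 1.28, 1.70 and 1.84% in B-2 libraries 1 to 3. Whether equal numbers mean the same mouse was not tested.

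Directions turned only for values that did not pass. Tet2 was at 0.13 with the block, 0.49 with the receptor covariate, 0.15 without both libraries and -0.43 to 0.06 with 1 left out. Igkc was at 0.034 with no filter, 0.13 with the macrophage covariate, 0.08 without both and -0.25 to 0.23 with 1 left out. Igkv1-117 was at -0.043 with 10 counts required, -0.19 with the block, -0.66 with the receptor covariate and -0.20 to 0.42. Igkv1-110 and Iglc3 were at -0.42 and -0.15 with that covariate, Iglc3 at -0.15 to 0.59, and Ighv5-17 at -1.02 without both and -0.74 to 1.77. Share differences with 1 library left out ran from -0.866 to 0.360 points for Iglc3, -0.441 to 0.257 for Ighv1-55, -2.36 to 4.32 for Ighv5-17 and -1.04 to 1.12 for Igkv1-117, and with the block were 0.177 for Iglc3 and 0.210 for Ighv1-55. In the 250 bases before the start alone, CACGTG was in 9.24% and TGACTCA in 4.13% of all promoters. The causes were not tested.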
